A study of Saccharomyces cerevisiae with 12 samples.

Results

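The 56 genes RPS0A to RPS31 of budding yeast encode the proteins of the cytosolic small ribosomal subunit. They were taken by systematic name from a fixed list of identifiers, and no measured value entered that match. The list itself was chosen with earlier results of these data known. Of the 56 genes, 55 had a row among the 6293 genes of the arrays and all 55 were tested. RPS14A was not analysed here, because the arrays carry a row whose name lacks the strand letter of that gene and it was not counted as a match. The genes form 24 pairs of A and B paralogs and 8 genes without a paralog, among them RPS2, RPS3, RPS20 and RPS31, and 23 pairs had both genes measured.

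The series holds 12 samples of strain SK1 in sporulation: 1 at 0.0 h, 4 early ones (0.5, 1.0, 1.5 and 2.0 h), 4 middle ones (2.5, 3.5, 4.0 and 4.5 h) and 3 late ones (5.0, 5.5 and 6.0 h). SK1 is a background widely used because it sporulates fast and in synchrony. No mutation or drug is named in the labels. The grouping of times into windows was made for the comparisons, with earlier results of these data known. Per the labels, each sample was total RNA from pooled cells of 6 synchronized cultures grown on 1 day, hybridised against time-zero RNA on a pair of arrays with the dyes exchanged. Each time is therefore 1 pooled sample, and a p-value sets a difference against how much neighbouring times of the same window vary. In such bulk samples, fewer cells expressing a gene and less RNA per cell cannot be told apart.

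The small subunit reads the messenger RNA: it carries the decoding centre, the entry and exit of the mRNA channel, and a head that moves during translation. Its proteins assemble on 18S ribosomal RNA together with many transient assembly factors. Most of the genes are kept in yeast as duplicates that encode nearly or fully identical proteins. In growing cells these genes are among the most highly transcribed, driven by Rap1 with Fhl1, Ifh1 and Sfp1 under nutrient signalling through the TOR and protein kinase A pathways, and they are known to be turned down when nutrients run out. Sporulation is induced by such starvation, of diploid cells.

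Each value is the log2 of the later level over the time-zero level, unless it is named as a difference between windows or between paralogs. A ratio of 0 is the level at time zero relative to the rest of the array, so the values carry no information on total RNA. Arrays with the later RNA in Cy5 are called Cy5 arrays and those with it in Cy3 are called Cy3 arrays. The direction of the Cy3 arrays rests on the labels and on the authors' deposited table. The file headers name the control image first on every array, yet all 12 Cy3 arrays followed the authors' deposited table only after their sign was turned. The 0.5 h Cy5 array ran against that table (r = -0.24 across genes). Ratios of the 2 dye orientations correlated across genes with r between -0.02 at 6.0 h and 0.58 at 1.5 h, and r was -0.01 at 5.0 h. Genes are not independent replicates, and these r values describe the arrays. A gene was counted as above the blanks when it was brighter than 95% of the 250 blank spots, which held for 23.9% to 89.2% of genes in the later RNA and for 17.6% to 84.5% in the time-zero RNA. The small subunit genes were bright, with a median brightness rank at 79.6% of array genes, and 48 of 55 were above the blanks in both dyes on 10 or more of the 24 arrays. Of 8 sporulation genes used as markers, SPO11, NDT80 and SMK1 were called higher in the late window than in the middle one, by 2.16 ± 0.30, 3.27 ± 0.49 and 3.25 ± 0.72 (SE). These 3 were above the blanks in both dyes on 1, 1 and 5 arrays. Of 8 haploid-specific genes 0 were called by limma in any comparison. In the late against middle test 1 was lower and 1 higher at an unadjusted p under 0.05. Of all 6283 genes tested, 413 were lower and 778 higher at that p.

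The small subunit genes moved largely as a block. Their median log2 ratio ran -0.14 at 0.0 h, -0.40 at 0.5 h, 0.26 at 1.0 h, -0.59 at 1.5 h, -1.21 at 2.0 h, -0.32 at 2.5 h, -0.51 at 3.5 h, 0.35 at 4.0 h, 0.04 at 4.5 h, -1.23 at 5.0 h, -1.51 at 5.5 h and -0.73 at 6.0 h. The course held a trough at 2.0 h, a return to the time-zero level at 4.0 and 4.5 h, and a lower level from 5.0 h on. Medians of the other array genes stayed between -0.01 and 0.05 at every time. The correction of each array sets its genes as a whole near 0, so these medians were set by the processing. In the 0.0 h sample, where time-zero RNA met itself, the single genes lay between -0.58 and 0.66, with 42 of 55 already below 0. At 2.0 h they lay between -3.11 and 0.62, with 49 of 55 below 0, and at 5.5 h between -3.17 and 1.05, with 52 of 55 below 0. The lowest time was 5.5 h for 24 genes, 2.0 h for 15 and 5.0 h for 12. The highest time was 4.0 h for 21 genes, 1.0 h for 15 and 4.5 h for 12.

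**Figure D1:**
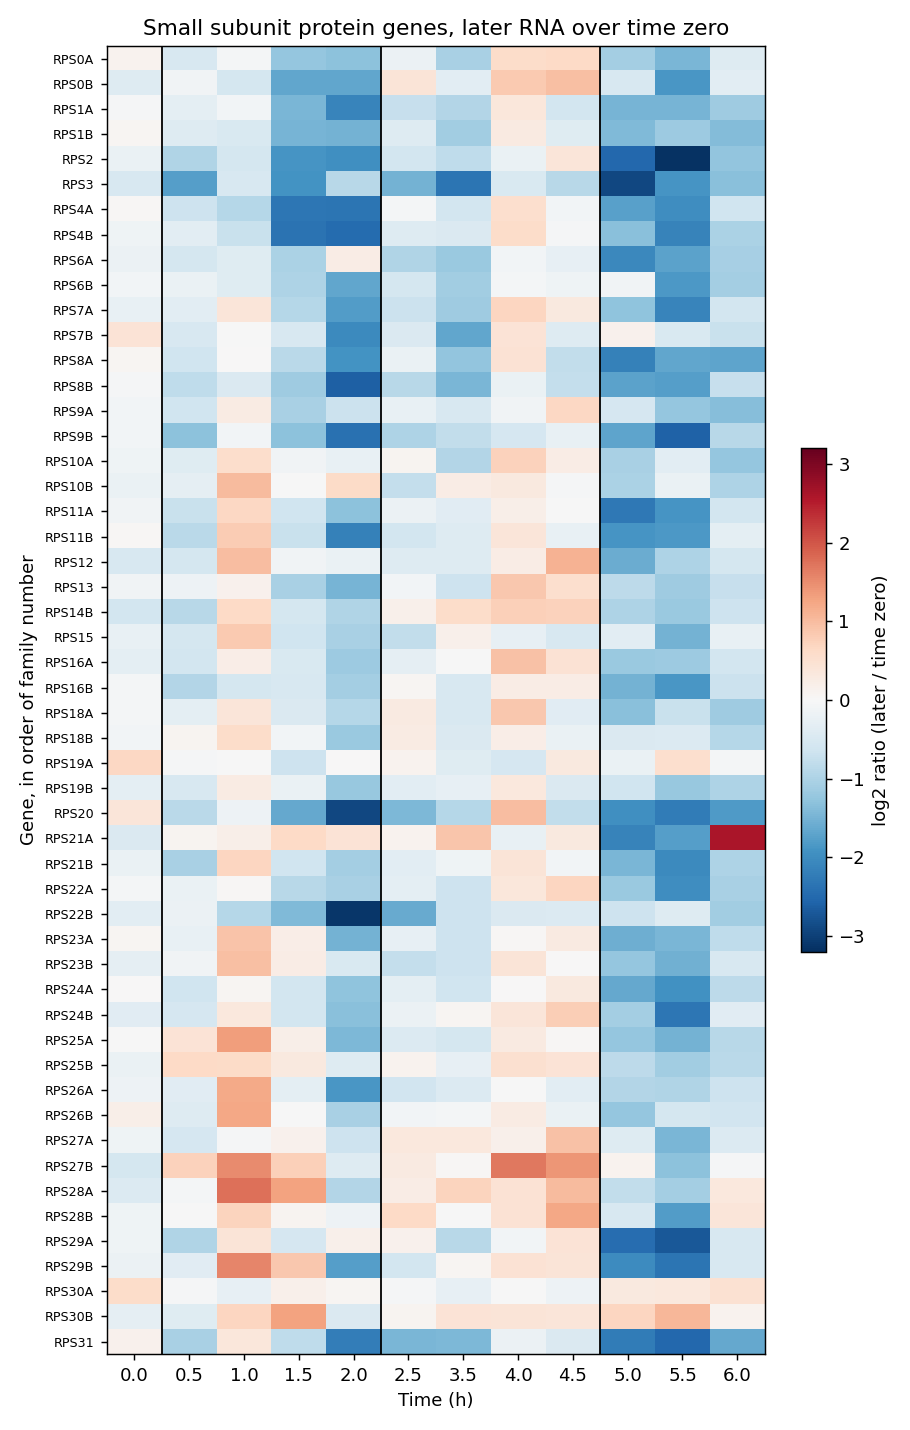
Log2 ratio of the later RNA over time zero for 52 of the 55 measured small subunit genes (rows, by family number) at the 12 times (columns), as the mean of both dye orientations. Black lines part the 0.0 h sample and the early, middle and late windows, and blue columns stand at 2.0, 5.0 and 5.5 h.

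The dye orientations did not give the same course. The trough at 2.0 h was seen on both, with medians of -1.25 on the Cy5 array and -1.34 on the Cy3 array. The values at 5.5 h were also below 0 on both, at -0.62 and -2.25. At 5.0 h the orientations were opposed, with a median of 0.89 on the Cy5 array and -3.54 on the Cy3 array, so the mean at 5.0 h describes neither array. At 2.5 h the medians were 0.42 and -1.09, and at 3.5 h they were 0.08 and -1.10. Signs were also opposed at 1.0 h, with -0.12 and 0.79, and at 4.5 h, with 0.33 and -0.20. At 6.0 h they were -1.16 and -0.38. Per the labels both arrays of a time took the RNA of the same pooled sample. Whether dye or hybridisation set these differences was not tested.

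**Figure D2:**
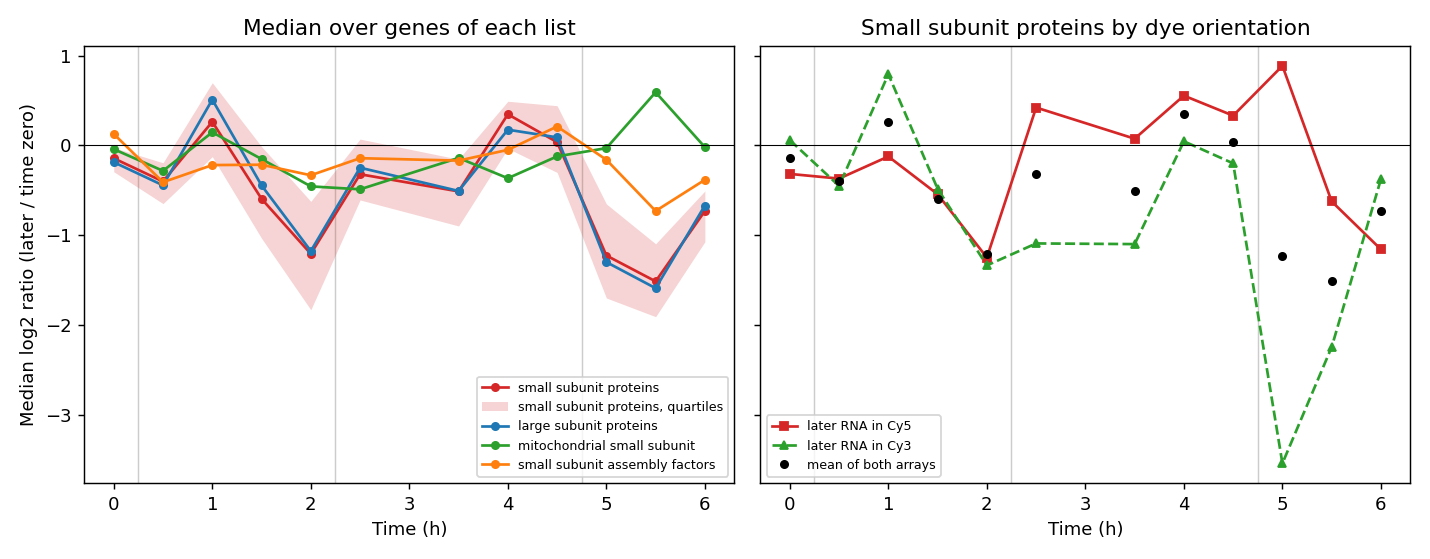
Left, median log2 ratio over time zero against time in hours for small subunit proteins (red, with the quartiles shaded), large subunit proteins (blue), mitochondrial small subunit proteins (green) and small subunit assembly factors (orange). Right, the small subunit median on the Cy5 array (squares) and the Cy3 array (triangles) of each time, with the median of their means (black dots); the arrays part most at 5.0 h.

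The late window was set against the middle one to ask which small subunit genes differed between the last samples and those before them. Ratios were lower in the late window for 50 of 55 genes, with a median difference of -1.12, against 0.03 over all 6283 genes tested. limma called 3 genes lower, RPS2, RPS14B and RPS16B, and none higher. Over all genes tested 0.318% were called lower and 3.31% higher. At an unadjusted p under 0.05, 32 of 55 were lower, where 6.57% of all genes were. In 29 of 55 genes every late sample lay below every middle sample, which held for 5.25% of all genes. The windows were chosen with earlier results known, and these p-values and counts do not allow for that choice. With windows ending at 1.5 and 4.0 h the median difference was -0.40, with 0 of 55 genes at an unadjusted p under 0.05. The 3 calls depended on the processing and on single samples. limma called 0 small subunit genes with normexp background correction, with median centring, with scaling between arrays, without spots marked S, without genes rarely above the blanks, on the arrays of either orientation alone and with windows ending at 1.5 and 4.0 h. In these settings 0 to 31 small subunit genes had an unadjusted p under 0.05, and 0 to 4 of all genes were called lower. Without the dimmest 25% of genes 1 was called lower, as were 6 of all genes tested, and 4 were with the ratios of the authors' deposited table, as were 25 of all its genes. No small subunit gene was called by limma without the 2.5, 4.0, 4.5, 5.0 or 5.5 h sample, with 19 to 32 genes at an unadjusted p under 0.05 and 0 to 14 of all genes called lower. Without the 0.5 h sample 1 was called lower (0.191% of all genes), and without the 1.5 h sample 1 was as well (0.127%). Without the 6.0 h sample 10 were called lower, and the share of all genes called lower was 1.58%.

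The size of the difference also depended on the processing and the arrays. Its median was -0.68 with scaling between arrays and -0.91 without spots marked S (53 genes). It was -0.59 on the Cy5 arrays alone and -1.52 on the Cy3 arrays alone, and 48 of 55 genes were lower in the late window on both. Single samples moved the medians of both orientations. On the Cy5 arrays the median was -0.21 without 6.0 h, with 35 of 55 genes below 0, and -1.27 without 5.0 h. On the Cy3 arrays it was -2.49 without 6.0 h and -0.78 without 5.0 h. Within 1 orientation, every late array lay below every middle array for 3 genes on the Cy5 arrays and 2 on the Cy3 arrays, where 4.15% and 3.74% of all genes did. Without the 5.0 h sample the median difference was -1.03, with 50 of 55 below 0 and 30 genes whose late samples all lay below the middle ones (9.53% of all genes). Without both 5.0 and 6.0 h, whose dye orientations did not correlate, only 5.5 h was left on the late side, and its spread was borrowed from the early and middle windows. The median was then -1.38, with 50 of 55 below 0 and 8 genes called lower, where 2.39% of all genes were called lower.

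RPS2 (YGL123W) encodes a protein at the entry of the mRNA channel that affects decoding accuracy. It had ratios of -2.51, -3.17 and -1.25 at 5.0, 5.5 and 6.0 h, against -0.59, -0.81, -0.20 and 0.39 at 2.5, 3.5, 4.0 and 4.5 h. All late samples were lower than all middle samples, and the difference was -2.01 ± 0.49 (SE, n = 3 against 4, limma adjusted p = 0.039). It was -1.33 on the Cy5 arrays and -2.68 on the Cy3 arrays. RPS2 spots carried the letter S, which sat on bright spots and is not explained in the files, on 6 arrays. With such spots left out the difference was -0.77 (limma adjusted p = 0.405). At 5.0 and 5.5 h the letter S marked 12 and 15 small subunit genes on the Cy3 arrays, and 3 and 0 on the Cy5 arrays. Leaving such spots out, here and for the genes below, can therefore also shift the weight between dye orientations. The 2 effects were not tested apart.

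RPS14B (YJL191W) encodes a platform protein, and its transcript is known to be held back by the protein through its intron. Its ratios were -0.99, -1.20 and -0.67 in the late samples, against 0.15, 0.58, 0.77 and 0.74 in the middle ones. The windows did not overlap, with a difference of -1.51 ± 0.38 (SE, limma adjusted p = 0.0455). Its 5.0 h value averaged 1.49 on the Cy5 array and -3.46 on the Cy3 array. RPS14B was marked S on 6 arrays, and its difference was -0.64 (limma adjusted p = 0.615) without those spots. RPS16B (YDL083C), whose protein reaches with its tail towards the transfer RNA, had ratios of -1.52, -1.87 and -0.68 in the late samples, against 0.06, -0.52, 0.24 and 0.23 in the middle ones. On the 5.0 h arrays RPS16B stood at 0.63 (Cy5) and -3.66 (Cy3). Its late samples lay below its middle samples, by -1.36 ± 0.34 (SE, limma adjusted p = 0.0436). This call did not hold in any of the 10 planned settings that changed the processing, the arrays, the genes, the windows or the source of values, in which its limma adjusted p ran from 0.0501 to 0.698. No spot of RPS16B was marked S, yet with such spots of other genes left out its adjusted p was 0.0605. RPS16B was the dimmest of the 3, above the blanks in both dyes on 9 arrays.

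Another 3 genes stood among the most negative differences without passing the test. RPS29A (YLR388W) and RPS29B (YDL061C) encode a small zinc-binding protein of the subunit head. RPS29A had -2.44, -2.71 and -0.51 in the late samples, against 0.13, -0.89, -0.10 and 0.44 in the middle ones. RPS29B had -2.0, -2.35 and -0.52 in the late samples, against -0.58, 0.07, 0.46 and 0.40 in the middle ones. In both genes the 6.0 h value lay inside the range of the middle samples, and the differences were -1.78 ± 0.53 and -1.71 ± 0.67 (SE, limma adjusted p = 0.0868 and 0.184). RPS24B (YIL069C), whose protein sits on the body of the subunit, had -1.10, -2.32 and -0.35 in the late samples, against -0.18, 0.07, 0.38 and 0.79 in the middle ones. Its late samples lay below its middle samples, and its difference was -1.52 ± 0.48 (SE, limma adjusted p = 0.103). At 5.0 h RPS24B was 1.10 on the Cy5 array and -3.29 on the Cy3 array.

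Of the genes without a paralog, RPS2, RPS20 and RPS31 had the largest differences. RPS20 (YHL015W), a head protein that is ubiquitinated when ribosomes collide, had -1.95, -2.24 and -1.82 in the late samples, against -1.44, -0.90, 0.98 and -0.80 in the middle ones. The windows did not overlap, and its difference of -1.47 ± 0.62 (SE) did not pass (limma adjusted p = 0.224). RPS31 (YLR167W) is made as a fusion of ubiquitin and a head protein. It had -2.25, -2.51 and -1.63 in the late samples, against -1.47, -1.45, -0.19 and -0.47 in the middle ones. Late values again lay below all middle values, with a difference of -1.23 ± 0.53 (SE, limma adjusted p = 0.228). At 5.0 h the Cy5 and Cy3 arrays gave 1.12 and -5.03 for RPS20 and 1.19 and -5.69 for RPS31. With spots marked S left out the RPS31 difference was 0.06. Other genes of this kind ran from -1.17 for RPS12 (YOR369C), a protein of the beak of the head, to -0.34 for RPS15. RPS13 stood at -1.06. RPS3 (YNL178W), which lines the entry of the mRNA channel, stood at -0.73 and was marked S on 12 arrays, the most of any small subunit gene.

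**Figure D3:**
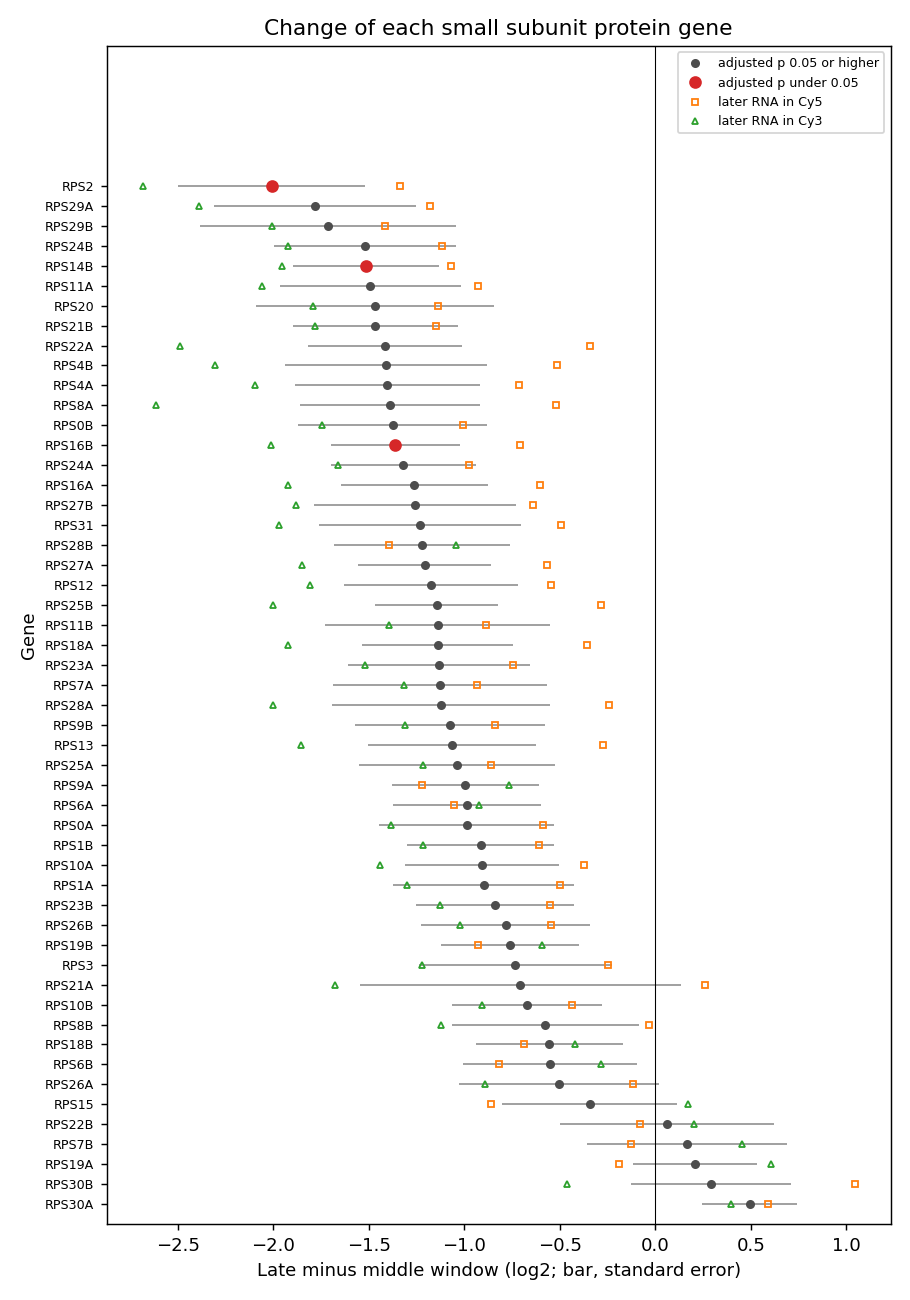
Late minus middle difference (log2) of 52 of the 55 measured small subunit genes with its standard error from limma, sorted from the most negative at the top. Red points are RPS2, RPS14B and RPS16B, the genes with an adjusted p under 0.05, and open symbols give the difference on the Cy5 (squares) and Cy3 (triangles) arrays alone, and both lie below 0 for most genes.

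Among bright genes, RPS30B, RPS7B, RPS22B and RPS15 had the least negative differences. RPS30B (YOR182C) encodes a small basic protein. It had 0.69, 1.05 and 0.12 in the late samples, against 0.08, 0.43, 0.42 and 0.39 in the middle ones. The windows overlapped, with a difference of 0.29 ± 0.42 (SE, limma adjusted p = 0.758) that was 1.05 on the Cy5 arrays and -0.46 on the Cy3 arrays. It was below 0 at 2 of 11 times after 0.0 h, and its 5.0 h value averaged 4.24 on the Cy5 array and -2.87 on the Cy3 array. RPS7B (YNL096C) had 0.13, -0.50 and -0.72 in the late samples, against -0.47, -1.67, 0.43 and -0.40 in the middle ones. RPS22B (YLR367W) had -0.67, -0.41 and -1.12 in the late samples, against -1.62, -0.67, -0.45 and -0.44 in the middle ones. RPS15 (YOL040C), a head protein needed for export of the young subunit from the nucleus, had -0.34, -1.52 and -0.23 in the late samples, against -0.80, 0.16, -0.27 and -0.51 in the middle ones. In each of these genes the windows overlapped, and the differences were 0.17 ± 0.52 for RPS7B, 0.06 ± 0.56 for RPS22B and -0.34 ± 0.46 for RPS15 (SE). None of the 4 kept its sign in every alternative setting.

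The dimmest small subunit genes gave little information. RPS19A and RPS30A were above the blanks in both dyes on 0 arrays, and their ratios of -0.66 to 0.53 and -0.26 to 0.48 after 0.0 h have dim signals on both sides. RPS21A was above the blanks in both dyes on 3 arrays. It stood at 2.60 at 6.0 h, the highest value of any small subunit gene, with 4.27 on the Cy5 array and 0.93 on the Cy3 array, and at -2.14 and -1.77 at 5.0 and 5.5 h.

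The middle window was next set against the early one. The median difference was 0.40, against 0.00 over all genes, and limma called 0 small subunit genes, as it called 0% of all genes in either direction. At an unadjusted p under 0.05, 8 of 55 were higher and 0 lower, where 3.82% of all genes were higher. The median was 0.93 on the Cy5 arrays and -0.10 on the Cy3 arrays, so its sign depended on the dye orientation. RPS4A (YJR145C) had the largest difference, at 1.51 ± 0.45, followed by RPS0B (YLR048W) at 1.48 ± 0.46 (SE, limma adjusted p = 0.559 and 0.562). RPS4A and its paralog RPS4B (YHR203C) encode an identical protein of the subunit body. RPS4A had -0.07, -0.60, 0.54 and -0.09 in the middle samples, against -0.67, -0.91, -2.31 and -2.35 in the early ones. RPS4B had -0.42, -0.47, 0.60 and -0.05 in the middle samples, against -0.33, -0.72, -2.36 and -2.47 in the early ones. In RPS4A all middle samples lay above all early ones, which held for 3 of 55 genes and 2.47% of all genes; in RPS4B the 0.5 h value lay inside the middle range. RPS4B differed by 1.39 ± 0.49 (SE, limma adjusted p = 0.614).

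Against time zero, early samples had a median difference of -0.38 and late samples one of -0.98, with 41 and 52 of 55 genes below 0. limma called 0 of 55 genes lower in each comparison, where 0% of all genes were called lower, and the 0.0 h side is 1 sample whose spread was borrowed from the windows. At an unadjusted p under 0.05, 1 gene was lower early (3.9% of all genes) and 12 were lower late (4.04% of all genes). Set against a fixed ratio of 0 instead of the measured 0.0 h sample, 11 genes were called lower early (6.33% of all genes) and 35 late (8.59% of all genes). That setting takes time zero as known without error. The late median was -0.12 on the Cy5 arrays and -2.13 on the Cy3 arrays. RPS20 had the most negative difference in both comparisons, at -1.77 ± 0.91 early and -2.38 ± 0.94 late (SE). RPS27B (YHR021C), which encodes a zinc-binding protein of the platform, was the highest early, at 1.21 ± 0.77 (SE), with 0.73, 1.51, 0.77 and -0.41 in the early samples.

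Within the block, genes with low family numbers had lower medians than those with high numbers at every time after 0.0 h, most of all at 1.0 and 1.5 h. The numbers were given to the proteins by their place on gels, so that low numbers broadly mark the larger proteins. The split at RPS9 was chosen after the values were seen and has no test. The 17 genes RPS0A to RPS9B had medians of -0.39, -1.30 and -1.79 at 1.0, 1.5 and 2.0 h, and the 38 genes RPS10A to RPS31 had 0.57, -0.26 and -1.05. The gap was present on both orientations at 1.0, 1.5 and 2.0 h. On the Cy3 arrays it was reversed at 0.5 h (-0.347 for the first group, -0.506 for the second) and at 6.0 h (-0.343 and -0.375). At 1.5 h the first group stood at -1.58 on the Cy5 array and -1.27 on the Cy3 array, and the second at -0.23 and -0.34. All 17 genes of the first group were below 0 at 1.5 h, and 25 of 38 in the second. At 3.5 h the first group stood at -1.10 and the second at -0.32, and at 4.0 h they stood at 0.28 and 0.36, the smallest gap after 0.0 h. At 5.5 h they stood at -1.85 and -1.38, at 6.0 h at -1.07 and -0.67, and at 0.0 h at -0.09 and -0.15. Spearman's rho between family number and ratio across the 55 genes was 0.57 at 1.0 h, 0.73 at 1.5 h, 0.50 at 3.5 h and -0.05 at 0.0 h. At the remaining times it was weaker, from -0.01 at 4.0 h to 0.39 at 6.0 h, with 0.15 at 5.5 h. Across 71 large subunit genes rho was 0.55 at 1.0 h, 0.63 at 1.5 h and -0.23 at 0.0 h, and from -0.21 at 4.5 h to 0.38 at 3.5 h otherwise. These points share arrays and, within pairs, sequence. At 1.5 h rho between mean brightness and ratio was -0.36, and its part in the pattern was not tested.

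**Figure D4:**
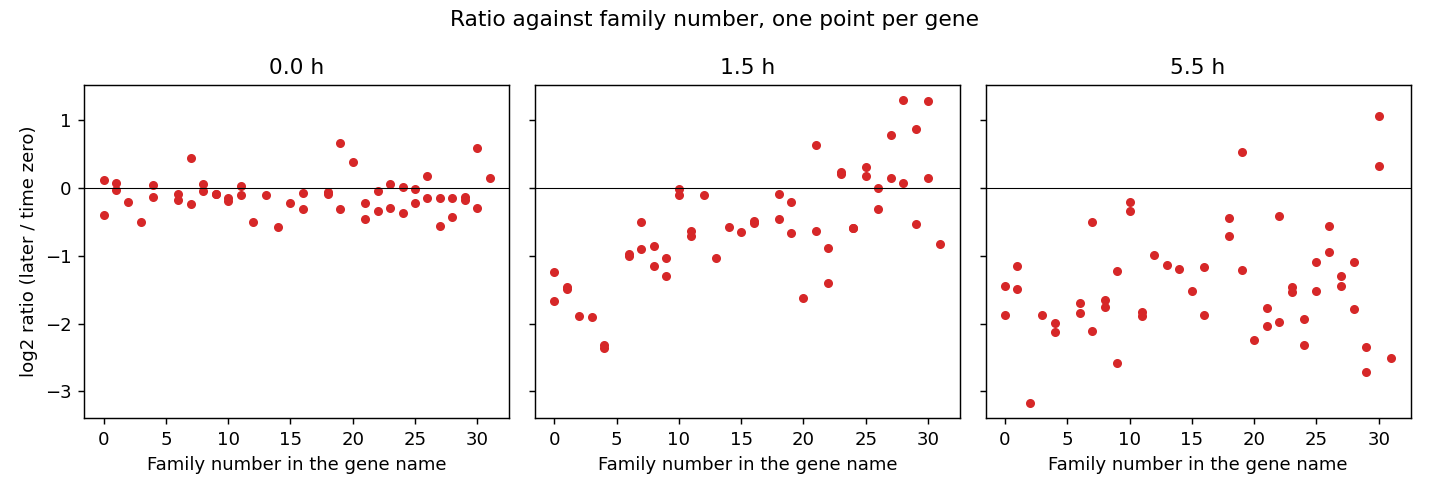
Log2 ratio over time zero (vertical axis) against the family number in the gene name (horizontal axis) for 52 of the 55 measured small subunit genes at 0.0, 1.5 and 5.5 h, 1 point per gene. At 1.5 h the points climb with the number (rho = 0.73 over all 55) and the lowest numbers lie below 0, while at 0.0 h the points lie flat (rho = -0.05).

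Paralogs were compared as the A minus B difference within each sample, which removes any shift common to the whole array. Most pairs have near-identical coding sequences and a spot may bind both transcripts, so likeness within a pair cannot be told apart from shared hybridisation. Among the 16 pairs with both genes above the blanks on 10 or more arrays, the root mean square of the difference over the 11 times after 0.0 h had a median of 0.50. For the 1112 pairs of bright genes from different families it had a median of 0.81. The ratios of a pair correlated over the 11 times with a median r of 0.84, against 0.68 for genes of different families; these points share all arrays. At 0.0 h the size of the difference had a median of 0.23 over 23 pairs, with 0.97 the highest.

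Among the 16 bright pairs RPS4A and RPS4B were the most alike, with a root mean square difference of 0.23 and r = 0.97. RPS4A minus RPS4B ran between -0.39 at 5.0 h and 0.35 at 6.0 h. RPS1A and RPS1B followed with 0.29, and RPS1A minus RPS1B was largest at 2.0 h, at -0.60. Their proteins line the exit of the mRNA channel. Both pairs kept within the range that the 23 pairs showed at 0.0 h.

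Among the same 16 pairs the least alike were RPS22, RPS29, RPS9 and RPS6, at 1.04, 0.92, 0.88 and 0.83. RPS21, which has a dim A gene, had the highest value of all 23 pairs, at 1.37. RPS6 is the protein phosphorylated downstream of TOR. RPS6A and RPS6B differed by at most 0.39 at 9 of the 11 times and by 1.90 at 2.0 h and -1.93 at 5.0 h. RPS9 binds early to the 18S RNA and affects accuracy. RPS9A lay above RPS9B at 10 of 11 times, with the largest difference of 1.71 at 2.0 h and a mean of 0.67 ± 0.60 (SD, n = 11 times). The 2 orientations gave the same sign at 7 of 11 times, and the late difference was 0.02 on the Cy5 arrays and 1.32 on the Cy3 arrays. RPS9A was above the blanks in both dyes on 10 arrays and RPS9B on 21. RPS25A lay above RPS25B at 1 of 11 times, with the same sign on both orientations at 5. RPS29A minus RPS29B was -1.13 and -1.40 at 1.0 and 1.5 h and 1.90 at 2.0 h. The sign thus changed between neighbouring times, while in the late samples the 2 genes lay within 0.44 of each other.

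The A minus B difference in the late samples was tested against the 8 early and middle samples, with an exact two-sided permutation test, whose smallest possible p is 0.00606. Of 23 pairs 3 had an unadjusted exact p under 0.05 and 0 passed after adjustment over the 23, with 0.139 the smallest adjusted p. A single pair at the smallest possible p reaches an adjusted p of 0.139, so at least 3 pairs would have to be that low together to pass. RPS22A (YJL190C) had -1.20, -1.98 and -1.03 in the late samples, where RPS22B had -0.67, -0.41 and -1.12. RPS22A minus RPS22B averaged -0.67 late and 0.85 at the earlier times, a change of -1.51 (exact p = 0.0182). In the late samples it was 0.20 on the Cy5 arrays and -1.53 on the Cy3 arrays. RPS7A (YOR096W), whose protein is ubiquitinated in translation quality control, had -1.28, -2.11 and -0.60 in the late samples, where RPS7B had 0.13, -0.50 and -0.72. RPS7A minus RPS7B averaged -0.97 late and 0.22 earlier, a change of -1.18 (exact p = 0.0182), with 0.07 on the late Cy5 arrays and -2.0 on the late Cy3 arrays. In both pairs the late difference thus rested on the Cy3 arrays.

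RPS8A minus RPS8B averaged -0.43 late and 0.40 earlier, a change of -0.83 (exact p = 0.0121). RPS8A is the only small subunit gene with a missing array, the Cy3 array at 6.0 h, so its 6.0 h value came from the Cy5 array alone. With differences taken only within arrays that measured both genes, the change was -0.60 (exact p = 0.0182).

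The middle against early test of the same difference has 70 arrangements and a smallest possible p of 0.0286. Of 23 pairs 0 had an unadjusted exact p under 0.05, and the smallest adjusted p was 0.876. At least 14 pairs would have to reach the smallest p together to pass. Among the lowest were RPS24 (change -0.33, exact p = 0.0571) and RPS0 (change -0.69, exact p = 0.0857). RPS0A minus RPS0B averaged -0.47 in the middle samples and 0.22 in the early ones.

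**Figure D5:**
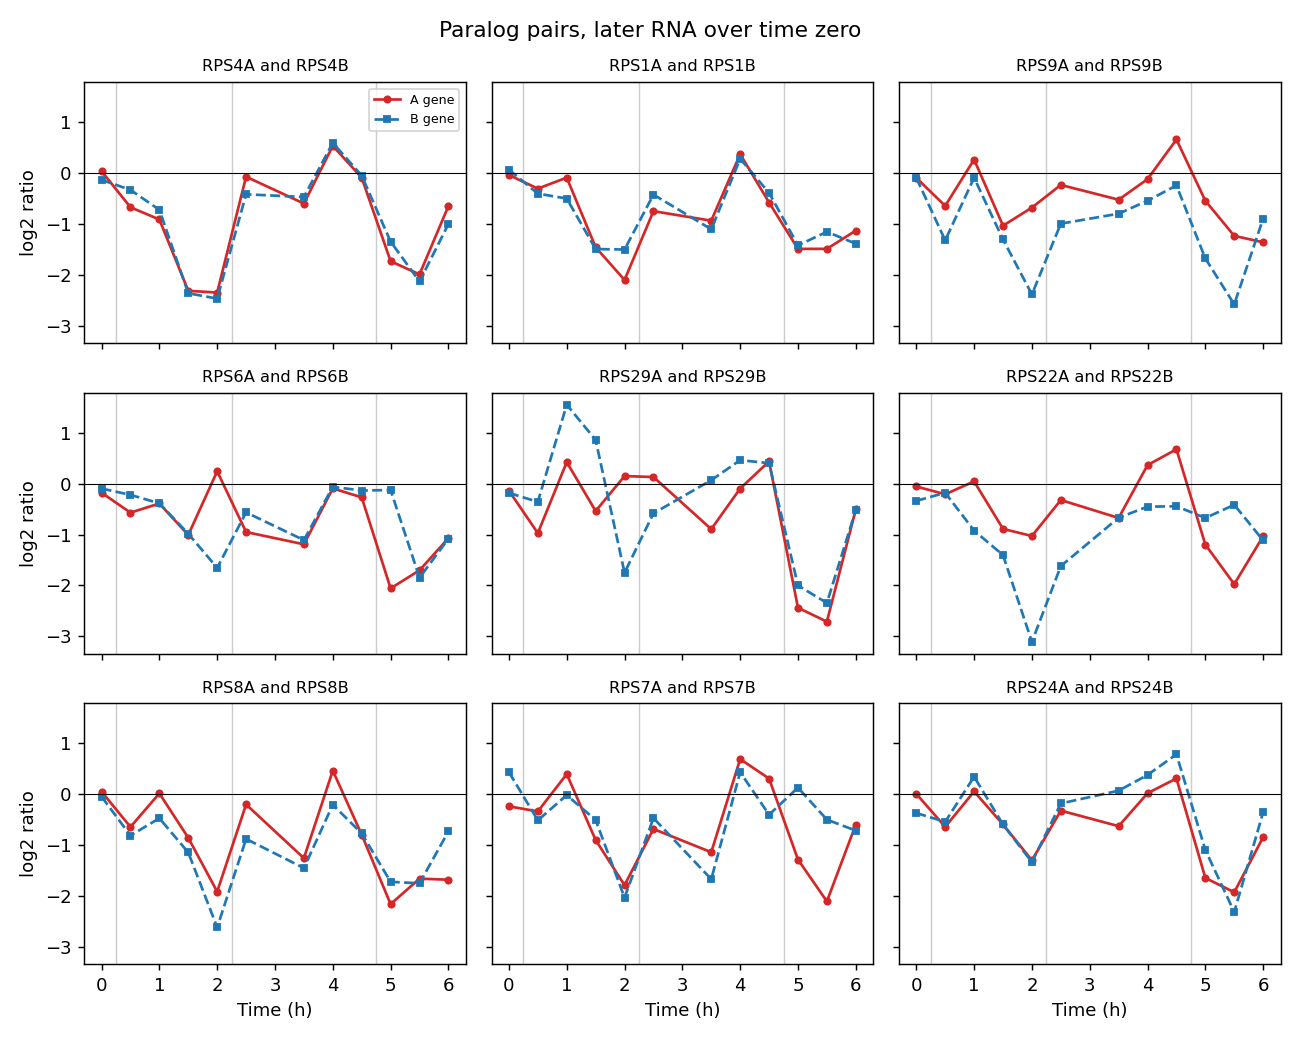
Log2 ratio over time zero against time in hours for the A gene (red circles) and the B gene (blue squares) of 9 pairs. RPS4 and RPS1 run together, and RPS9A lies above RPS9B at 10 of 11 times in the mean of both arrays. RPS22A and RPS7A lie below their B genes at 5.0 and 5.5 h and close to them at 6.0 h (differences of 0.08 and 0.12). RPS22A lies above RPS22B by 2.08 at 2.0 h. The adjusted p of the late permutation test was 0.139 for both pairs.

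Other genes of the ribosome were taken from lists by name. Of 76 large subunit genes tested, 74 were lower in the late window than in the middle one, with a median of -1.17 and 1 called lower, close to the -1.12 of the small subunit. In 32 of the 76 every late sample lay below every middle sample. That held for 5.25% of all genes, and 0.318% of all genes were called lower. The 20 mitochondrial small subunit genes had a median of 0.41, with 0 called by limma and 4 higher at an unadjusted p under 0.05. At that p 778 of all 6283 genes were higher. The 52 small subunit assembly factors had a median of -0.42, with 40 below 0 and 0 called by limma. At an unadjusted p under 0.05, 8 of them were lower, where 6.57% of all genes were. Against time zero the assembly factors had a median of -0.47 early and -0.59 late, where the small subunit genes had -0.38 and -0.98. Whether these lists differ from the small subunit genes was not tested.

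Among 13 regulators of ribosomal protein genes the late minus middle median was 0.04. STB3 alone was called, higher by 1.63 ± 0.40 (SE, limma adjusted p = 0.0411), where 3.31% of all genes were called higher. The call was lost on the arrays of either orientation alone and with windows ending at 1.5 and 4.0 h, where limma called 0 of all genes. STB3 encodes a repressor that binds promoters of ribosome genes. It had 0.75, 1.31 and 0.58 in the late samples, against -0.22, -1.19, -0.52 and -1.09 in the middle ones. SFP1, an activator, stood at -1.30 ± 0.51 and RAP1 at 0.81 ± 0.36 (SE, limma adjusted p = 0.191 and 0.242). Of 9 partners of small subunit proteins 0 were called by limma, with 2 lower and 1 higher at an unadjusted p under 0.05. Among all 6283 genes 413 were lower and 778 higher at that p. ASC1, which encodes a scaffold protein bound to the head of the subunit, had -3.57 at 1.5 h, -3.52 at 5.0 h and -3.82 at 5.5 h, against -0.19 at 4.5 h. STM1, a clamp of idle ribosomes, was at or below -0.07 at every time after 0.0 h. The other ubiquitin genes gave late minus middle differences of -0.55 for RPL40A, -0.91 for RPL40B and 0.12 for UBI4, where RPS31 had -1.23, and none of the 4 passed.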

How the data were processed

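Total RNA of 12 sporulation times was measured on 24 spotted 2-colour arrays of 13056 spots. The deposited intensity values were taken as background-subtracted, since 568 spot values are negative; the scanner software is not stated per the file headers. The authors' deposited table holds 1 log2 ratio per gene and time, of which the scale follows the arrays and the centring is unstated; it covers 6151 genes and served as an alternative. Control spots, spots marked U or Z and values at or below 0 were left out. Spots marked S were kept; the letters are unexplained. Log2 ratios were corrected by loess (span 0.3, 4 iterations), Cy3 arrays were turned by sign, and spots of a gene and then both arrays of a time were averaged to 1 replicate. With R 4.3.3 and limma 3.58.1, 4 window means were fitted to 6283 genes measured at all 12 times, with Benjamini-Hochberg adjustment at 5%. Fit and permutation test were tested on simulated data. Figures were drawn with matplotlib 3.10.9. Signal over the blanks and the number of arrays limit the precision.

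The small subunit genes, the lists and the windows were chosen with earlier results of these data known. Named were called genes, the 4 most and 4 least negative bright genes, the 4 least and 2 most alike pairs, up to 3 pairs with the smallest exact p in each test, up to 3 genes without a paralog, and up to 4 genes of each list. RPS4, RPS27B, RPS21A, RPS25 and other genes without a paralog were added after their values were seen. A few genes are not reported here by name; they remain in the counts and medians. Symbols came from RefSeq's R64 gene table by systematic name, for 5716 array genes. No coordinates are printed because the array files name no build, and no promoter motif was searched. Alternatives changed the background correction, loess, scaling, spots marked S, dye orientation, dim genes, windows, the time-zero side, the source of values and single samples. Leaving out 5.0 and 6.0 h together, and paralog differences within arrays, were added after seeing the data.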

Additional observations from a re-analysis of the deposited data

Results flagged for a closer look

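Dixon's test was applied to the 4 early and the 4 middle values of each of the 48 bright small subunit genes, 96 windows in all, and chance alone marks about 1 in 20 such windows. In 1 window a value stood apart from the rest. RPS30B had a log2 ratio of 0.080 at 2.5 h, against 0.39 to 0.43 at the other middle times. At 2.5 h it was 0.55 on the Cy5 array and -0.39 on the Cy3 array.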

How the results depend on the processing

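The count of genes called between the late and middle windows was 228. It was 105 with normexp, 94 with median centring, 50 with scaling, 120 without spots marked S, 117 without the dimmest 25%, 65 without genes rarely above the blanks, 702 without 5.0 and 6.0 h (added after seeing the data) and 0 on the Cy5 arrays alone, on the Cy3 arrays alone and with windows ending at 1.5 and 4.0 h (limma; 810, 946 and 542 at an unadjusted p under 0.05). Single samples left out gave 124 to 466. Small subunit medians there were -0.59 on Cy5 arrays, -0.68 with scaling, -0.91 without spots marked S and -0.40 with the other windows, and -1.38 to -0.90 without single samples. For middle against early, 0 genes were called (459 unadjusted), and 0 to 1 without single samples. The small subunit median was 0.93 on Cy5 arrays, -0.10 on Cy3 arrays, -0.18 with the other windows and 0.07 to 0.61 without single samples. For early against time zero, 0 genes were called by limma (369 unadjusted), 1 with normexp, on Cy5 arrays or with the other windows, 11 with scaling, 704 against a ratio of 0, and 0 to 0 without single samples (medians -0.67 to -0.13). For late against time zero 56 were called, 9 with normexp, 29 with median centring, 26 without spots marked S, 334 without 5.0 and 6.0 h, 1422 against a ratio of 0, 28 to 114 without single samples (medians -1.09 to -0.87), and 0 on Cy5 arrays, on Cy3 arrays, without the dimmest 25%, without genes rarely above the blanks and with the other windows (limma; 561, 281, 501, 448 and 372 unadjusted). The small subunit median there was -0.12 on Cy5 arrays and -2.13 on Cy3 arrays. Late minus middle reversed for RPS15 to 0.17 on Cy3 arrays, for RPS22B to -0.30 with median centring, -0.081 on Cy5 arrays and -0.091 in the authors' deposited table, for RPS7B to -0.12 on Cy5 arrays, for RPS30B to -0.46 on Cy3 arrays and for RPS31 to 0.063 without spots marked S. Without single samples RPS15 ran from -0.58 to 0.067, RPS22B from -0.21 to 0.25 and RPS7B from -0.22 to 0.49. Median centring moved the median of all genes by more than 0.1 in 2 comparisons, to -0.11 for middle minus early and 0.11 for early minus zero. Paralog pairs that passed numbered 0 in every setting (0 to 0 without single samples), which says nothing about stability: with a late sample left out at least 11 of the 23 pairs would have to reach the smallest p together, and between the middle and early windows at least 12 to 14. Except where values or fewer genes and samples show it, the cause was not tested. A scan block was not run, since all arrays carry the same scan date, and a fit on the 11 later samples was used where 0.0 h was left out. No paired analysis was possible because each time is 1 pooled sample without numbered replicates.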
